A study of Arabidopsis thaliana with 2 samples.

Results

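The 10 genes described here make and destroy cytokinins in Arabidopsis thaliana leaf explants. They were chosen by locus: the isopentenyltransferase genes IPT3 (AT3G63110), IPT5 (AT5G19040) and IPT7 (AT3G23630), the cytochrome P450 gene CYP735A2 (AT1G67110), and the cytokinin oxidase/dehydrogenase genes CKX1 (AT2G41510), CKX3 (AT5G56970), CKX4 (AT4G29740), CKX5 (AT1G75450), CKX6 (AT3G63440) and CKX7 (AT5G21482). All 10 are among the 33602 loci of the deposited count tables.

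The series has 2 RNA sequencing libraries from first-pair rosette leaves of 12-day-old plants that carry pER8:3xFlag-NAC1 in the Col-0 background. In the pER8 vector, estradiol activates a chimeric transcription factor that switches on the inserted gene, here a Flag-tagged copy of the NAC-domain transcription factor gene NAC1. The estradiol library is from explants on B5 medium with β-estradiol in DMSO, and the control library from explants of the same line on B5 medium with DMSO alone. The transgene is therefore present in both groups, no line without it was part of the comparison, and estradiol itself differs between the groups along with NAC1. The sources used here do not give the culture time or the number of independent lines and plants. The stated aim of the series was to find the genes that NAC1 up-regulates. Each group has 1 library, so no test was possible, no p-value is given, and every difference below is between these 2 libraries only.

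Cytokinins are adenine-derived hormones that promote cell division and delay leaf senescence, and in tissue culture their balance with auxin steers explants toward shoots or roots. Isopentenyltransferases outside the tRNA type attach the isoprenoid side chain to ATP or ADP as the first committed step. CYP735A enzymes hydroxylate that chain to give trans-zeatin forms, and LONELY GUY (LOG) enzymes release the active free bases. Cytokinin oxidases cleave the side chain off irreversibly, and glucosyltransferases convert cytokinins to conjugates.

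Total gene counts were 48350705 in the estradiol library and 39799127 in the control library. NAC1 (AT1G56010) had 28380 counts in the estradiol library and 466 in the control library, as the treatment labels have it, with native and transgene reads counted together and with other genes overlapping the locus. Intervals are exact 95% intervals of the estradiol over control ratio of counts-per-million (CPM) values. They cover counting error only, not variation between plants or cultures. Genes with 10 counts or more in either library are referred to as measured. A gene is called higher if its interval lies entirely above 2 and lower if it lies entirely below 0.5. The 4 leaf mesophyll markers were abundant in both libraries, with a summed level of 7165 CPM in the estradiol library and 10117 CPM in the control library, and all 4 had intervals below 1, from 0.520 for CAB1 to 0.875 for RCA. All 3 guard cell markers had ratios below 1 as well, from 0.568 to 0.818. Of 4 xylem markers XCP1 was called higher, at 2.40 (2.08 to 2.79), and the other 3 had ratios from 0.643 to 0.820. The 5 root markers checked had at most 6 counts in either library. The part of tissue make-up in the results below was not tested.

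Of the 10 genes, 7 were measured and 3 were close to absent. CKX5 was the 1 gene called higher, with IPT3 and IPT7 called lower, and CKX1, CKX4, CKX6 and CKX7 were neither. Across all 20274 measured genes, 5.38% were called higher and 4.64% lower. The median log2 ratio was 0.23 over the 7 measured genes and 0.01 over all measured genes. As libraries of 1 group can differ by more than counting error, the intervals were also widened by an assumed coefficient of variation of 0.2 per library. With this assumed variation CKX5 stayed called and IPT3 and IPT7 did not, where 3.15% of all measured genes were higher and 1.79% lower.

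**Figure D1:**
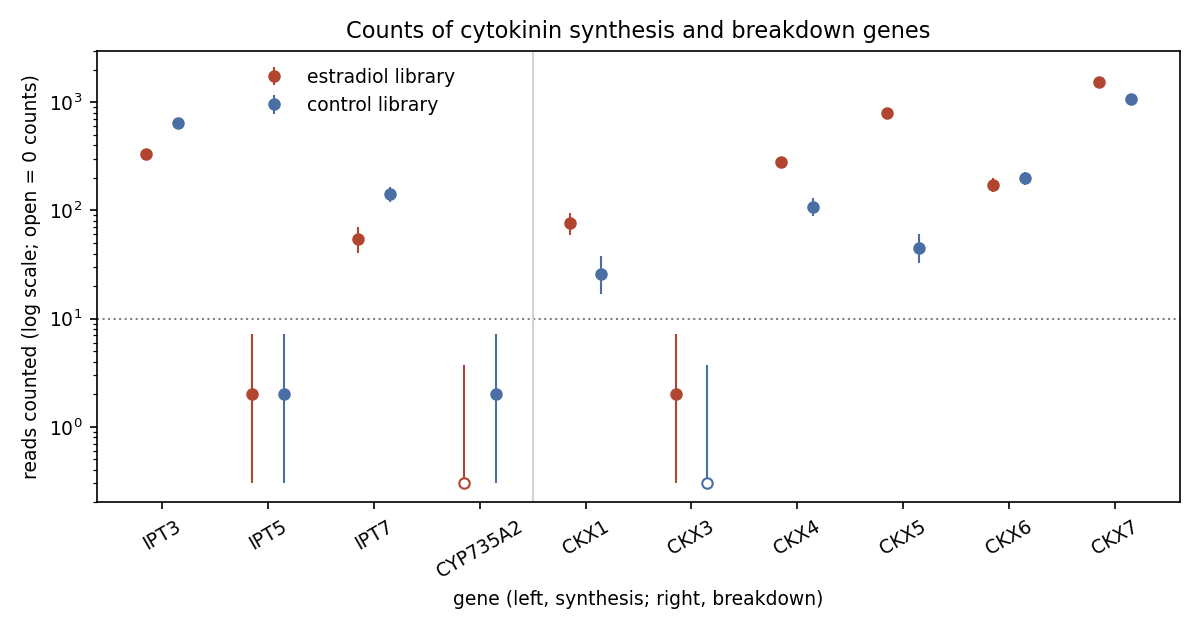
Read counts (log scale) of the 10 genes in the estradiol library (red, left of each pair) and the control library (blue, right), with exact 95% Poisson intervals. The dotted line is the minimum of 10 counts, open circles are 0 counts drawn at the foot of the axis, and interval ends below the axis are cut there. CKX5 has 793 and 45 counts, IPT3 335 and 646, and IPT5, CYP735A2 and CKX3 lie under the line in both libraries.

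Among the genes of synthesis, IPT3 and IPT7, the 2 measured members, were called lower in the estradiol library, against 4.64% of all measured genes. The 3 other isopentenyltransferase genes that were measured, IPT1, IPT2 and IPT9, were not called. IPT3, which encodes a plastid enzyme and is known for phloem expression and induction by nitrate, had 335 counts in the estradiol library and 646 in the control library. Its level was 6.88 CPM in the estradiol library and 16.3 CPM in the control library, 2.38-fold lower with estradiol (2.08 to 2.72). IPT7, which encodes a mitochondrial isopentenyltransferase, had 54 counts in the estradiol library and 141 in the control library. Its level was 1.11 CPM in the estradiol library and 3.57 CPM in the control library, 3.22-fold lower with estradiol (2.34 to 4.49). The intervals of the 2 genes overlapped, and the IPT3 over IPT7 count ratio was 6.20 in the estradiol library and 4.58 in the control library, a change of 1.35-fold with an interval that includes 1 (0.954 to 1.94). Ranked by the interval bound nearest to 1, IPT7 was the 638th and IPT3 the 835th lowest of the 20274 measured genes. With the assumed variation the intervals of the ratio ran from 0.165 to 0.591 for IPT7 and from 0.238 to 0.745 for IPT3.

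IPT5, known from lateral root primordia and the root cap, had 2 counts in the estradiol library and 2 in the control library. CYP735A2, which is known to be expressed mainly in roots, had 0 counts in the estradiol library and 2 in the control library. In the estradiol library the floor of 3 counts corresponds to 0.0616 CPM, and the exact interval of a count of 0 reaches 0.0758 CPM. No difference was detectable for either gene at this depth. CYP735A1, the other gene of this step, had 1 count in the estradiol library and 0 in the control library, so neither hydroxylase gene was measured.

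Summed over IPT3, IPT5 and IPT7, the level was 8.03 CPM in the estradiol library and 20.0 CPM in the control library, 2.49-fold lower with estradiol (2.20 to 2.81). IPT3 held 85.7% of these counts in the estradiol library (exact binomial 95% interval 81.8 to 89.0) and 81.9% in the control library (79.0 to 84.5), and made up 79.3% of the difference in the sum, IPT7 20.6%. Over all 9 IPT genes IPT3 held 16.2% of the counts in the estradiol library (14.6 to 17.9) and 29.4% in the control library (27.5 to 31.3). IPT9, of the tRNA type, held 57.8% in the estradiol library and 45.8% in the control library. IPT2, also of the tRNA type, held 21.9% in the estradiol library and 17.9% in the control library. These 2 genes, with ratios of 0.961 for IPT9 and 0.935 for IPT2, weigh most in the sum over all 9. The sum over the 9 genes was 42.4 CPM in the estradiol library and 55.7 CPM in the control library, a ratio of 0.762 (0.717 to 0.810) that did not pass the rule.

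Because IPT3 is known from phloem, the phloem marker list is given beside it. All 7 phloem markers had ratios below 1, from 0.113 for FT to 0.970 for SEOR1. Their median log2 ratio was -0.25, against -0.53 for the mesophyll and -0.75 for the guard cell markers. The summed level of the phloem markers was 547 CPM in the estradiol library and 714 CPM in the control library. The sucrose transporter gene SUC2 of companion cells had 7472 counts in the estradiol library and 7223 in the control library, a ratio of 0.839 (0.813 to 0.867). FT, which encodes the mobile flowering signal, was the 1 marker of this list called lower, with 6 counts in the estradiol library and 43 in the control library. IPT3 had a ratio of 0.421 (0.368 to 0.481), below those of all phloem, mesophyll and guard cell markers but FT. The part of phloem content in the IPT3 result was not tested, and in bulk tissue fewer cells of a type and less RNA per cell cannot be told apart.

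Among the genes of breakdown, CKX5 stood apart. CKX5, which encodes a cytokinin oxidase predicted to be secreted to the apoplast, had 793 counts in the estradiol library and 45 in the control library. Its level was 16.3 CPM in the estradiol library and 1.14 CPM in the control library, 14.3-fold higher with estradiol (10.6 to 19.8). With the assumed variation the interval was 7.54 to 26.6. By its interval bound nearest to 1, CKX5 ranked the 166th highest of the 20274 measured genes.

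In the RefSeq TAIR10.1 annotation CKX5 overlaps AT1G75440 on the same strand and the loci AT1G09553 and AT1G09557, which are not among the counted loci. AT1G75440 had 475 counts in the estradiol library and 315 in the control library, a ratio of 1.22 (1.06 to 1.42), far below that of CKX5. Reads shared between overlapping loci may have been counted as ambiguous, and without a stated strand setting antisense reads cannot be separated, so the CKX5 count is uncertain to that extent.

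CKX1 and CKX4 had ratios above 2 with intervals that reached below it. Taken by the ratio alone, CKX1, CKX4 and CKX5 lay above 2, as did 7.88% of all measured genes, and IPT3 and IPT7 lay below 0.5, as did 8.53%. CKX4, also predicted to be secreted, had 278 counts in the estradiol library and 108 in the control library, a ratio of 2.09 (1.67 to 2.63). CKX1, known from the secretory pathway, had 76 counts in the estradiol library and 26 in the control library, a ratio of 2.37 (1.502 to 3.86). The CKX1 over CKX4 count ratio was 0.273 in the estradiol library and 0.241 in the control library, so the relation of these 2 genes changed by 1.14-fold with an interval on both sides of 1 (0.676 to 1.95). A 1.5-fold threshold would call both higher, but the share of all measured genes called at that threshold was not computed.

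CKX7 and CKX6 had the ratios nearest to 1. CKX7, the cytosolic cytokinin oxidase, had 1555 counts in the estradiol library and 1077 in the control library, a ratio of 1.17 (1.08 to 1.27). CKX6, known from vascular tissue, had 172 counts in the estradiol library and 198 in the control library, a ratio of 0.705 (0.571 to 0.869). It was the 1 measured CKX gene with a ratio below 1. With the assumed variation both intervals included 1, at 0.669 to 2.05 for CKX7 and 0.391 to 1.27 for CKX6. CKX3 had 2 counts in the estradiol library and 0 in the control library, and no difference was detectable. In the control library the floor of 3 counts corresponds to 0.0759 CPM, and the exact interval of a count of 0 reaches 0.0933 CPM.

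Count ratios within a library do not depend on how the libraries were scaled. CKX5 over CKX7 was 0.510 in the estradiol library and 0.0418 in the control library, 12.2-fold higher with estradiol (8.93 to 17.0). Against CKX4, CKX5 was 2.85 in the estradiol library and 0.417 in the control library, 6.85-fold higher (4.65 to 10.2). Against CKX1, it was 10.4 in the estradiol library and 1.73 in the control library, 6.03-fold higher (3.36 to 10.6). CKX5 thus differed in ratio from each of these family members by more than counting error.

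**Figure D2:**
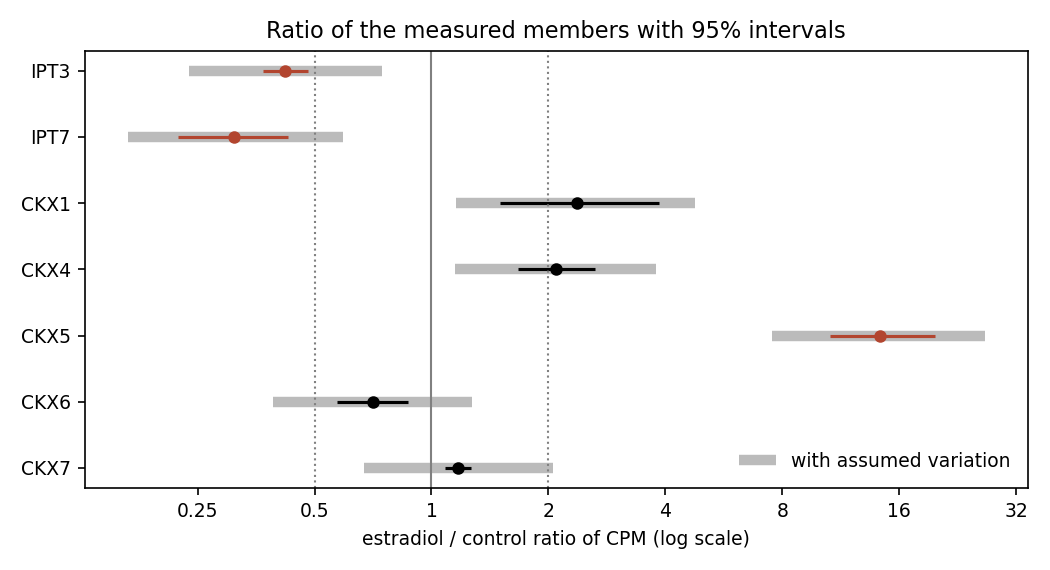
Estradiol over control ratio of CPM (log scale) of the 7 measured genes. Points with thin bars are the ratio and its exact 95% counting interval, red where called, grey bars add the assumed coefficient of variation of 0.2, and dotted lines mark 0.5 and 2. CKX5 lies at 14.3, IPT7 at 0.311 and IPT3 at 0.421.

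The make-up of the 6 CKX genes shifted with these ratios. CKX5 held 27.6% of their 2876 counts in the estradiol library (25.9 to 29.2) and 3.09% of their 1454 counts in the control library (2.27 to 4.12). The share of CKX7 was 54.1% in the estradiol library (52.2 to 55.9) and 74.1% in the control library (71.7 to 76.3). The share of CKX6 was 5.98% in the estradiol library and 13.6% in the control library.

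Summed over the 6 CKX genes, the level was 59.1 CPM in the estradiol library and 36.8 CPM in the control library, a ratio of 1.61 (1.51 to 1.71) that did not pass the 2-fold rule. CKX5 made up 68.0% of this difference and CKX7 21.0%. Without CKX5 the sum was 42.8 CPM in the estradiol library and 35.7 CPM in the control library, a ratio of 1.20 (1.12 to 1.28). Without the abundant CKX7 the ratio of the sum was 2.84 (2.53 to 3.20), which passed the rule.

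Set against the sum of IPT3, IPT5 and IPT7, the counts of the 6 CKX genes were 7.36 per IPT count in the estradiol library and 1.84 in the control library, a change of 3.99-fold (3.47 to 4.59). Leaving out CKX5, the balance was 5.33 in the estradiol library and 1.79 in the control library, a change of 2.98-fold (2.59 to 3.44). IPT9 and IPT2, with ratios of 0.961 and 0.935, held most counts of all 9 IPT genes. Set against these 9, the 6 CKX genes had 1.39 counts per IPT count in the estradiol library and 0.661 in the control library. The change was 2.11-fold (1.93 to 2.30). These are balances of transcripts and say nothing of enzyme activity or hormone levels, which were not measured.

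**Figure D3:**
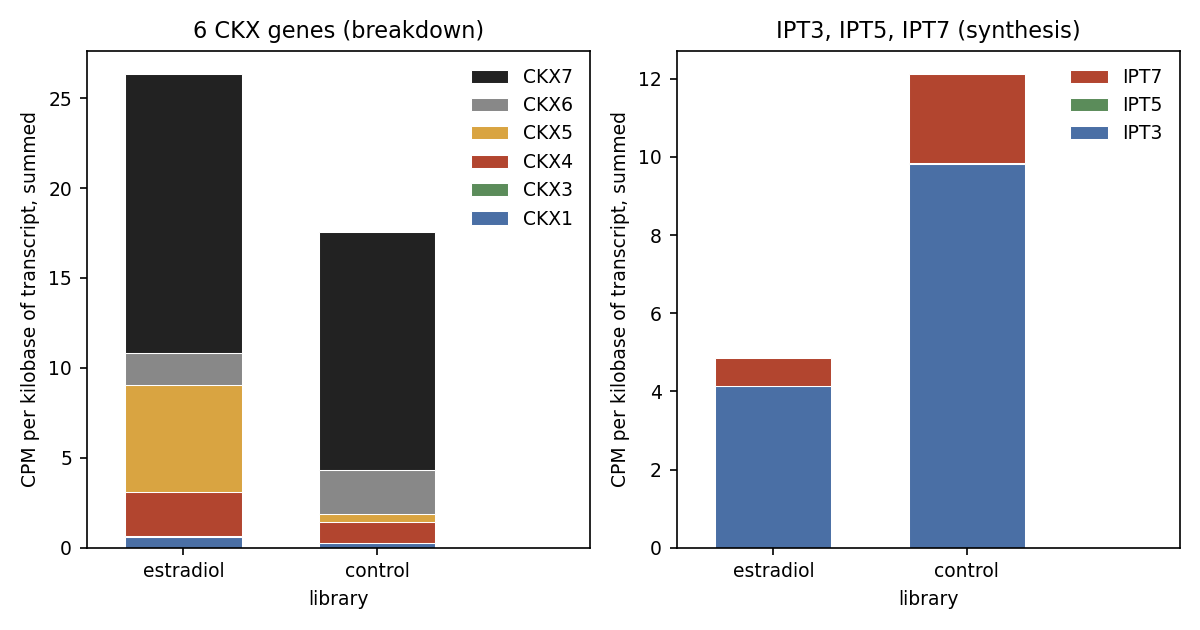
Summed level, in CPM per kilobase of transcript (linear axes, different scales), of the 6 CKX genes (left panel) and of IPT3, IPT5 and IPT7 (right panel) in the estradiol library (left bar) and the control library (right bar), split by gene. The CKX bar is 26.3 in the estradiol library and 17.6 in the control library, and the IPT bar 4.86 in the estradiol library and 12.1 in the control library. IPT5 and CKX3 are too low to be seen.

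Levels of different genes were compared per kilobase of transcript, with exact Poisson intervals. In the estradiol library the order from the highest was CKX7 (15.5 CPM per kilobase), CKX5 (5.97), IPT3 (4.13), CKX4 (2.46), CKX6 (1.76), IPT7 (0.705) and CKX1 (0.619). Of the neighbours in this order, IPT7 and CKX1 had overlapping intervals. In the control library the order was CKX7 (13.2 CPM per kilobase), IPT3 (9.81), CKX6 (2.50), IPT7 (2.27), CKX4 (1.18), CKX5 (0.418) and CKX1 (0.261). There CKX6 and IPT7 overlapped, as did CKX5 and CKX1. CKX5 was the second highest of the 7 in the estradiol library and next to the lowest in the control library. On this scale it stood above 36.7% of all measured genes in the estradiol library and above 8.12% of them in the control library.

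The genes differ in structure as well as in role. In the RefSeq annotation IPT3 and IPT7 have 1 exon, with 1011 and 990 coding bases, and the CKX genes have 4 or 5 exons in their longest transcript, with 1572 to 1914 coding bases. No member shares 90% identity over 100 bases with a gene that does not overlap it. CKX6 overlaps AT3G63445, which had 278 counts in the estradiol library and 233 in the control library, a ratio of 0.968 (0.811 to 1.16), and CKX1 overlaps AT2G41505 and AT2G41515, which are not among the counted loci, so both counts are uncertain in the way of CKX5. For CKX1 the longest match to another locus was CKX6, at 67.3% identity over 1111 bases.

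The promoter of CKX5 is shown because this gene had the ratio farthest from 1 among the 7 measured members. CKX5 lies on chromosome 1, minus strand, and the sequence runs from 250 bases before to 50 bases after the annotated start, on the coding strand, in RefSeq TAIR10.1. Capitals mark CACG, a core motif bound by NAC factors, on either strand (as CGTG where reversed).
CKX5: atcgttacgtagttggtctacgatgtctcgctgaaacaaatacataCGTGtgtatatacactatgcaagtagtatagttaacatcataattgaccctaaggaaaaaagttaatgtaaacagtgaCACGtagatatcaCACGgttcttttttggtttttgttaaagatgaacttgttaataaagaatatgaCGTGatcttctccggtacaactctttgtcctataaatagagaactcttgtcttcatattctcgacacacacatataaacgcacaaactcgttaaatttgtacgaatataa

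In the CKX5 window the NAC core motif had 4 matches, starting at -204, -126, -113 and -60 from the annotated start. AGATT, a core motif of type-B response regulators, had 0 matches. The NAC core motif was found in 52.7% of 27443 promoters of the same length and the response regulator motif in 69.7%, and 4.66% held at least 4 NAC matches. In the same window CKX1 and CKX7 had 0 NAC matches, and CKX4 had 2 that are both strands of 1 palindrome. CKX7 had 3 response regulator matches, CKX1 had 1 and CKX4 had 0. A longer NAC motif, CATGTG, found in 12.9% of promoters, had 0 matches in these 4 CKX genes. None of the 3 motifs contains another. A match is a string of letters and not a binding site, and no match says only that these letters are not in this window.

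The rest of the cytokinin pathway was described from lists by role, chosen with earlier results of these data known. Of 62 other genes 47 were measured, with 1 called higher and 6 lower, against 5.38% and 4.64% of all measured genes. Of the 6, LOG6 passed the minimum through the control library alone, and with a minimum of 50 counts 5 were lower. The median log2 ratio of the 47 was -0.22. With the assumed variation 1 was called higher and 0 lower.

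In the other synthesis genes, 3 of 7 were measured and none was called. IPT9 was the most abundant of them, with 1194 counts in the estradiol library and 1008 in the control library, a ratio of 0.961 (0.883 to 1.05). IPT4, IPT6 and IPT8 had 0 counts in both libraries. LOG genes were measured in 5 of 9, with LOG6 called lower on 1 count in the estradiol library and 12 in the control library, a ratio of 0.0676 (0.00158 to 0.457). LOG8, the most abundant, had 2992 counts in the estradiol library and 2140 in the control library, a ratio of 1.13 (1.07 to 1.20). APT1, which converts cytokinin bases back to nucleotides, was not called, at a ratio of 1.20 (1.17 to 1.24). For comparison, 4.64% of all measured genes were called lower.

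On the side of removal and transport, UGT85A1 was called higher. UGT85A1 encodes an O-glucosyltransferase of trans-zeatin, and had 6072 counts in the estradiol library and 786 in the control library, a ratio of 6.27 (5.82 to 6.76). UGT73C5, which acts on cytokinins and on brassinosteroids and other substrates, was called lower, with 1985 counts in the estradiol library and 4201 in the control library, a ratio of 0.383 (0.363 to 0.405). It has a similar copy, AT2G36790, so its count is uncertain. The other 3 of 5 glucosyltransferase genes were not called. CKX2, the CKX gene outside the 10, had 7 counts in the estradiol library and 1 in the control library and was not measured. Among 6 measured transporter genes PUP14, a plasma membrane importer of cytokinin bases, was called lower, with 5283 counts in the estradiol library and 11221 in the control library, a ratio of 0.382 (0.370 to 0.395). It overlaps AT1G19780, so its count is uncertain too. Over all measured genes 5.38% were called higher and 4.64% lower.

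In signal transduction 27 of 32 genes were measured, with a median log2 ratio of -0.08. Of these, 0 were called higher and 3 lower, against 5.38% and 4.64% of all measured genes. None of the 3 histidine kinase receptor genes was called, and AHK3, the most abundant, had a ratio of 1.08 (1.04 to 1.12). AHP4, 1 of 5 measured phosphotransfer genes, was called lower at 0.459 (0.434 to 0.486) and overlaps AT3G03295. Type-B response regulators, which activate cytokinin targets, were called in 0 of 6, with ARR1 the most abundant at 1.54 (1.46 to 1.62). The cytokinin response factor genes were called in 0 of 6, with CRF6 the most abundant at 1.41 (1.24 to 1.62).

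Type-A response regulators are induced by cytokinin and dampen its signal. Of 10 genes 7 were measured, with 2 called lower and 0 higher, against 4.64% and 5.38% of all measured genes. ARR7 had 103 counts in the estradiol library and 226 in the control library, a ratio of 0.370 (0.290 to 0.469), and ARR9 109 in the estradiol library and 232 in the control library, a ratio of 0.381 (0.301 to 0.481). ARR9 overlaps AT3G08825. The summed level of the 10 type-A genes was 44.6 CPM in the estradiol library and 44.8 CPM in the control library. This sum holds opposite differences, as 3 of the 7 measured genes had ratios above 1 and 4 below. ARR4, not called at a ratio of 2.09, had 24.3 CPM in the estradiol library and 11.6 CPM in the control library. ARR8, also not called, had 13.1 CPM in the estradiol library and 19.0 CPM in the control library.

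**Figure D4:**
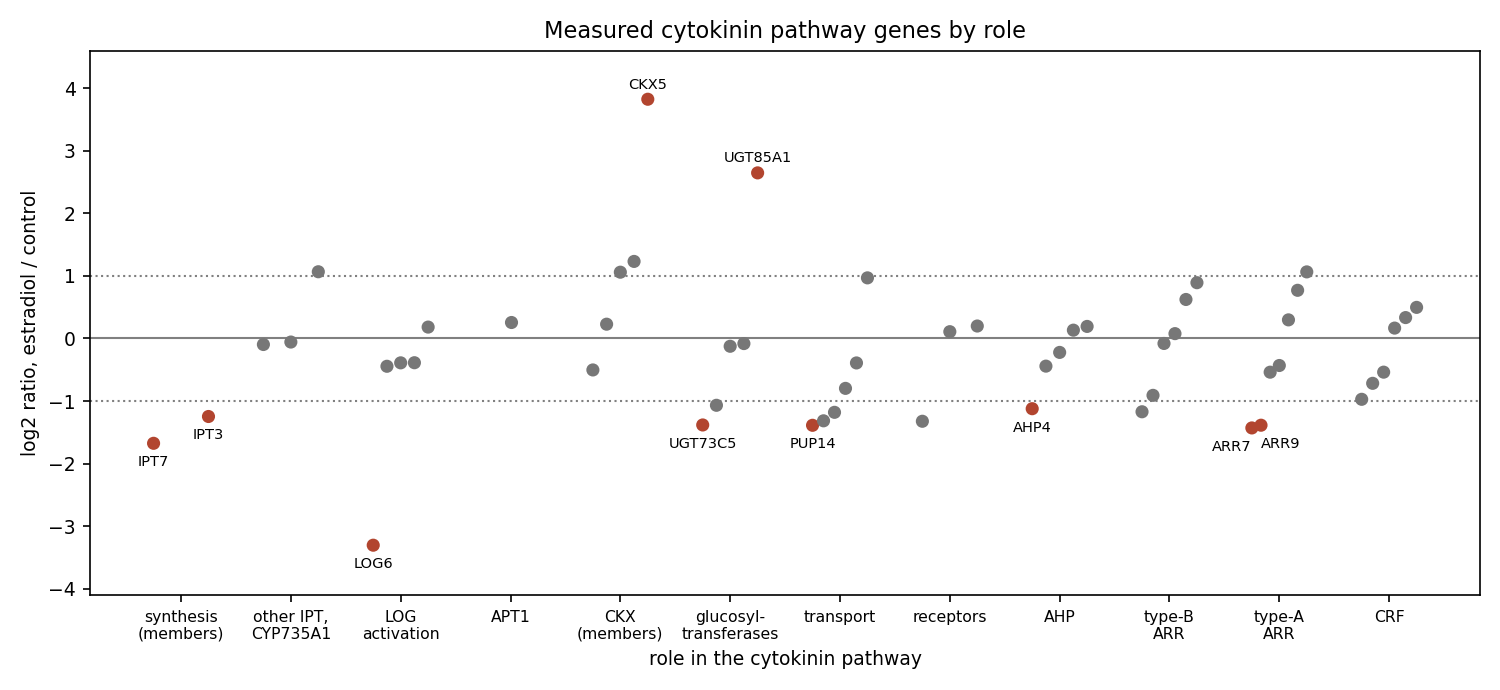
Log2 ratio of estradiol over control for each measured cytokinin pathway gene, grouped by role, with the points of a group spread sideways in order of value. Red points are called and labelled, grey points are not called, and dotted lines mark a 2-fold ratio. CKX5 at 3.82 and UGT85A1 at 2.65 are the 2 red points above 0, and 8 red points lie below it.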

How the data were processed

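The authors deposited raw read counts per locus, 1 table per library, with 5 summary lines that were kept out of library sizes. Per the submitters' processing notes, the tools were HTSeq, FastQC and DESeq, with no version stated, and the build TAIR10. The sources used here do not give the aligner, annotation release or strand setting. Groups follow the treatment label, and no test was run with 1 library per group.

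Library sizes were scaled with TMM (edgeR 4.0.16, R 4.3.3), with factors of 1.007 for estradiol and 0.993 for control. Ratios have exact 95% conditional (Clopper-Pearson) intervals from scipy 1.17.1, and log2 ratios a prior count of 0.5. Reads carry no molecular identifiers, so intervals and the floor of 3 counts cover counting error only and may be too narrow. The call rule was also run on simulated counts that hold counting error only, so that run says nothing of variation between plants or cultures. The assumed variation enters a normal interval of the log ratio. DESeq2 1.42.0 gave alternative size factors. Names, lengths and promoters come from RefSeq TAIR10.1, in which 32835 loci matched. No coordinates are given, since the notes name TAIR10. The promoters of some members are not reported here. Similar copies were sought with BLAST 2.17.0. The members, lists and rules were chosen with earlier results of these data known. Named pathway genes are those called and, in lists with none called, the most abundant. Added after their values were seen were IPT2, LOG8, SUC2, ARR4, ARR8, genes at or near 0 and others in the closing section.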

Additional observations from a re-analysis of the deposited data

How the results depend on the processing

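The 7 member ratios kept their direction and their calls under DESeq2 size factors, total gene counts and upper-quartile scaling, which shift log2 ratios by at most 0.05. Count minimums of 0 and 50 changed no member call. Neither could drop a called member, as CKX5, IPT3 and IPT7 had 793, 646 and 141 counts in their higher library. With a 1.5-fold threshold 3 members were called higher, CKX1 at 2.37 and CKX4 at 2.09 joining CKX5. IPT3 at 0.421 and IPT7 at 0.311 were not called past 4-fold or with the assumed variation, leaving 0 members lower in both. With the assumed variation 1.79% of all measured genes were lower. The shares of all measured genes called at 1.5-fold and at 4-fold were not computed, so the member counts at these thresholds have no background beside them. Of the other pathway genes 0 stayed lower with the assumed variation. The CKX sum had a ratio of 1.498 per kilobase of transcript and 2.84 without CKX7. Sums over the whole families were added after seeing the data. The IPT sum, called lower over 3 genes, was not called over all 9, at 0.762. Most counts of the 9 were of IPT9 and IPT2, with ratios of 0.961 and 0.935. The CKX sum was 1.61 over all 7 genes. The sum per kilobase of coding sequence was added then too and changed neither family's result. No paired analysis was possible because each group has 1 library. Among the 10 members, low counts limit IPT5, CYP735A2, CKX3 and CKX1 most.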

Other observations

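Several pathway genes lay past 2-fold without passing the size rule, and were picked out after their values were seen. Of the 47 other measured pathway genes, 3 had a point ratio above 2 and 11 one below 0.5, against 7.88% and 8.53% of all measured genes. AHK4, a cytokinin receptor of vascular tissue, had 75 counts in the estradiol library and 153 in the control library, a ratio of 0.398 (0.298 to 0.528). UGT76C2, an N-glucosyltransferase of cytokinins, had 72 counts in the estradiol library and 123 in the control library, a ratio of 0.475 (0.350 to 0.641). Against these, ARR4, a type-A response regulator, had 1181 counts in the estradiol library and 458 in the control library, a ratio of 2.09 (1.88 to 2.34). IPT1 had 29 counts in the estradiol library and 11 in the control library, a ratio of 2.14 (1.04 to 4.75).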
